A study of Acacia koa with 4 samples.

Results

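The transcripts examined were the 3 of 4000 on a koa microarray whose description contained the words "late elongated hypocotyl", namely A353, A3704 and A8698. LATE ELONGATED HYPOCOTYL (LHY) is a transcription factor of the MYB family. All 3 were described by similarity to the same protein record, and no other transcript carried that record. The RNA was extracted from seedlings of koa (Acacia koa), a tree legume native to Hawaii. The stressed seedlings had their stems bent by hand towards each cardinal direction without being wounded, and the unstressed seedlings did not. There were 2 biological replicates in either group. A replicate was a pool of about 20 seedlings, ground together and hybridised to an array of its own. The labels used here state neither the genotype or age of the seedlings nor the time from bending to freezing, nor the hour at which each pool was frozen.

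In Arabidopsis, LHY and its close relative CCA1 form the morning arm of the circadian clock. Their transcripts peak around dawn and decline through the day, and their proteins repress evening genes such as TOC1. The TOC1 protein and its relatives, the pseudo-response regulators, repress LHY and CCA1 in turn, which closes the loop. Light reaches this clock through photoreceptors such as the phytochromes and through regulators of protein breakdown such as the ubiquitin ligase COP1. These roles are background from Arabidopsis and were not measured in koa.

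The level of the LHY transcripts did not separate bent from unbent seedlings in these pools. It did separate the pools numbered 1 from the pools numbered 2, in which it was 2.62-fold to 3.37-fold lower. Levels are RMA intensities on a linear scale, which the authors computed by combining the probes of a transcript into 1 value. A353 read 24736 in unstressed replicate 1, 7479.7 in unstressed replicate 2, 17268 in stressed replicate 1 and 7174 in stressed replicate 2. Both pools numbered 1 were high and both pools numbered 2 were low, whether or not the seedlings had been bent.

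A3704 read 7209 in the first and 2048 in the second unstressed replicate, and 5763 and 1784 in the corresponding stressed pools. A8698 read 5429 and then 1938 in the unstressed replicates, and 4463 and then 1826 in the stressed ones. The order of the pools was the same for all 3 transcripts, from unstressed replicate 1 at the top through stressed replicate 1 and unstressed replicate 2 to stressed replicate 2 at the bottom. Each value rested on 18 probes, the full number for this array. Array intensities ran from 44.2 to 64925, so that none of these values lay at either end of the scale. In RNA from whole pools, fewer cells expressing a gene and less of its RNA per cell cannot be told apart.

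**Figure D1:**
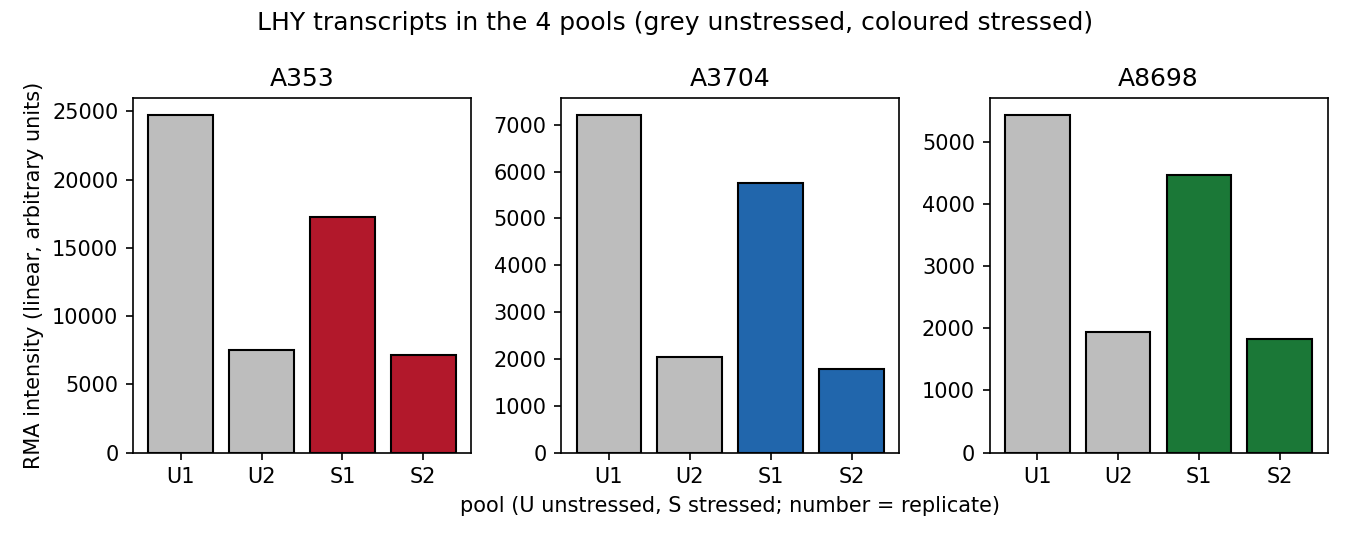
Bars give the RMA intensity (linear axis from 0) of A353, A3704 and A8698 in each of the 4 pools, unstressed in grey and stressed in colour, 1 array per bar and no error bar. In every panel the pools numbered 1 stand above the pools numbered 2, and the scales of the panels differ.

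The comparison of bent with unbent seedlings asks which transcripts respond to a mechanical stimulus. The mean log2 intensity of A353 was 13.73 ± 1.22 (SD, n = 2) without bending and 13.44 ± 0.90 (SD, n = 2) with it. Its stressed level was 0.818 times the unstressed level (95% confidence interval 0.237 to 2.82, limma adjusted p = 0.986). A3704 stood at 11.91 ± 1.28 without and 11.65 ± 1.20 with bending (SD, n = 2 each), a ratio of 0.835 (0.200 to 3.49, limma adjusted p = 0.987). A8698 stood at 11.66 ± 1.05 and 11.48 ± 0.91 (SD, n = 2 each), a ratio of 0.880 (0.281 to 2.75, limma adjusted p = 0.987). For each transcript the difference between the groups was smaller than the spread between the replicates of either group.

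None of the 3 passed limma's test at an adjusted p of 0.05, against 0.950% of all 4000 transcripts. None had an unadjusted p under 0.05 either, against 5.50% of all transcripts, and the stressed and unstressed values overlapped for all 3, while 31.5% of all transcripts had groups that did not overlap. Over the 3 transcripts the intervals of the ratio reach from 0.200 to 3.49, so these arrays do not show that bending left LHY unchanged. The sign itself changed when certain single pools were left out. The log2 difference of −0.29 for A353 became 0.57 without unstressed replicate 1 and 0.34 without stressed replicate 2. That of A3704 went from −0.26 to 0.65 and 0.58, and that of A8698 from −0.18 to 0.56 and 0.46, without the same pools. Leaving out 1 pool unbalances the replicate numbers between the groups, so the difference between replicates enters these values. They therefore do not show whether the sign is stable between pools of the same number. No permutation of 2 against 2 pools can give a two-sided p below 0.333, and this limit also holds for the comparison by replicate number below.

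Set against the pool of the same number, the stressed pools were lower in every case. Between the pools numbered 1 the log2 difference, stressed minus unstressed, was −0.52 for A353, −0.32 for A3704 and −0.28 for A8698. Between the pools numbered 2 it was −0.06 for A353, −0.20 for A3704 and −0.09 for A8698. A negative sign at both numbers was common on the array and was found in 35.2% of all transcripts, so that it does not set LHY apart. All 4000 transcripts together had a median log2 difference of −0.04.

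**Figure D2:**
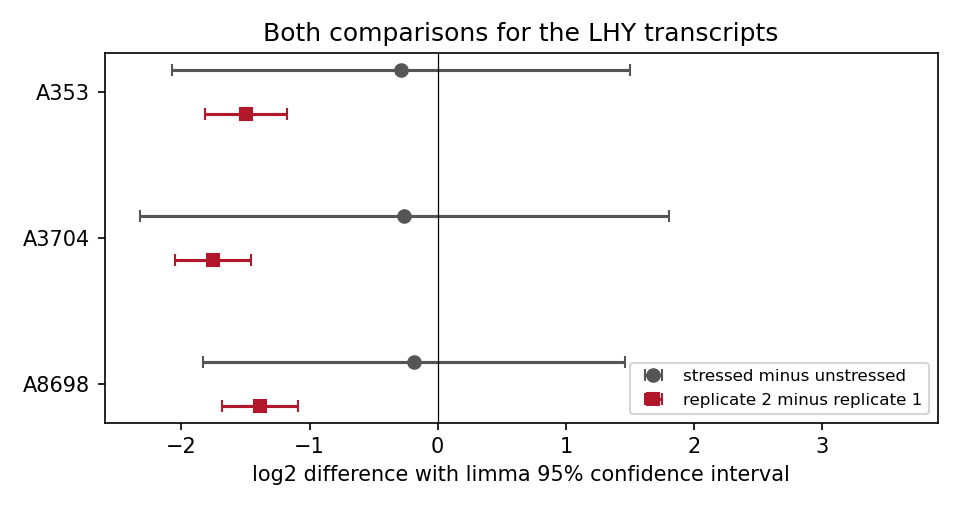
Points give the log2 difference of each LHY transcript, grey circles for stressed minus unstressed and red squares for replicate 2 minus replicate 1, with limma's 95% confidence intervals as bars. The intervals of the first comparison span 0 for all 3 transcripts, and those of the second lie between −2.05 and −1.09.

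The same 4 arrays were then compared by replicate number, with the group as a term in the fit. The labels do not say what a number stands for, so this comparison describes pools that share a number and no named treatment. A3704 was 3.37-fold higher in the pools numbered 1 than in those numbered 2 (95% confidence interval 2.75 to 4.14, limma adjusted p = 1.79e-06). A353 was 2.82-fold higher (2.26 to 3.52, limma adjusted p = 1.79e-05). A8698 was 2.62-fold higher (2.13 to 3.22, limma adjusted p = 1.84e-05). All 3 members were thus lower in replicate 2, against 2.50% of all transcripts called in that direction, 1.73% in the opposite direction and 4.23% in either.

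The separation was also counted without a variance model. Pools numbered 1 lay above pools numbered 2 without overlap for all 3 members, as for 21.3% of all transcripts. For A3704 the lower of the pools numbered 1 was 2.81 times the higher of the pools numbered 2. The same ratio was 2.31 for A353 and 2.30 for A8698. Only 11 of the 4000 transcripts (0.275%) were at least 2-fold higher in this sense in the pools numbered 1, and the LHY members were 3 of these 11. No transcript was separated by 2-fold in the opposite direction. The fit had 1 residual degree of freedom, and its p-values lean on a prior from all transcripts that counted as 14.27 degrees of freedom.

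Each group showed the difference on its own, in arrays that the other group does not share. Among unstressed pools, replicate 1 exceeded replicate 2 by 3.31-fold for A353, 3.52-fold for A3704 and 2.80-fold for A8698. Among stressed pools the excess was 2.41-fold for A353, 3.23-fold for A3704 and 2.44-fold for A8698. Ranked from the most negative replicate difference, the 3 held places 7, 8 and 13 of 4000 in the unstressed pools and places 5, 10 and 11 in the stressed pools. The difference was smaller in the stressed pools for all 3, by 0.46 (A353), 0.12 (A3704) and 0.20 (A8698) on the log2 scale. That gap could not be tested, since no residual degree of freedom is left for it, and 63.4% of all transcripts also had the smaller replicate difference in the stressed pools.

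**Figure D3:**
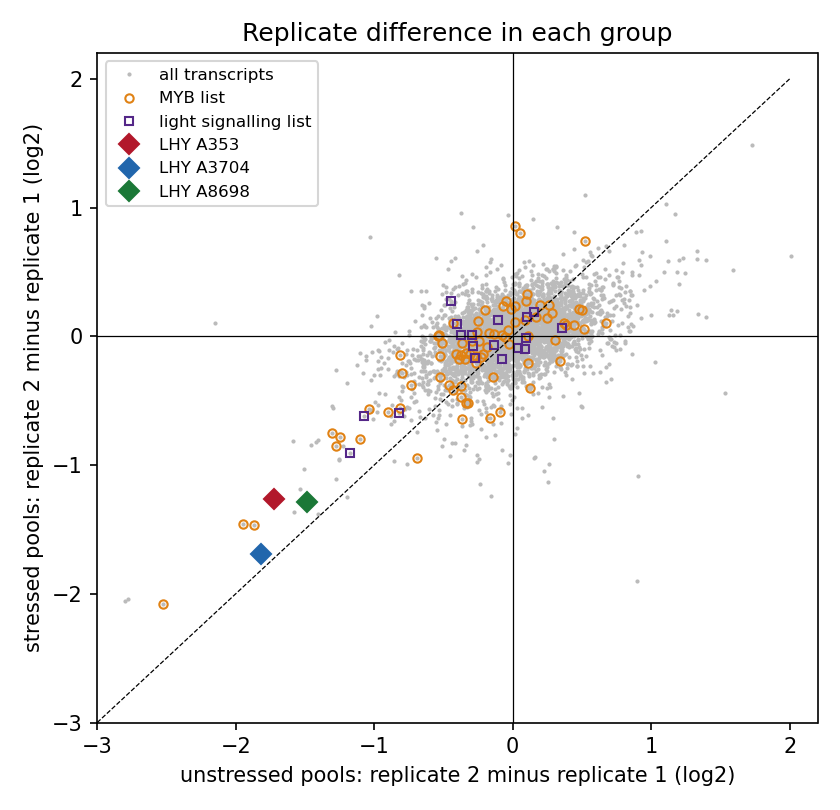
Each point is a transcript, with its log2 difference between replicates 2 and 1 in the unstressed pools on the horizontal axis and in the stressed pools on the vertical axis; the dashed line marks equal differences. The LHY transcripts (diamonds) lie far below 0 on both axes, at −1.82 to −1.49 and −1.69 to −1.27, near several MYB transcripts (circles).

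The 3 transcripts followed each other closely. With each profile centred on its own mean over the 4 pools, A353 and A8698 lay 0.20 apart on the log2 scale (Euclidean distance over the 4 pools), A353 and A3704 lay 0.31 apart, and A3704 and A8698 lay 0.38 apart. The median distance of other transcripts was 1.56 from A353, 1.80 from A3704 and 1.43 from A8698. This closeness was not particular to LHY, since each member had a transcript of another description nearer to it than either of the other members. The nearest such transcript lay 0.164 from A353, 0.176 from A3704 and 0.086 from A8698. A3704 had the widest swing, from 1.04 above to 0.98 below its own mean, and A8698 the narrowest, from 0.84 above to 0.74 below. Whether they stem from 1 gene or from related genes whose RNAs bind each other's probes was not tested, as no koa sequence was used here. They are therefore not counted as 3 separate observations of LHY.

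A few transcripts with other descriptions had almost the same profile. The nearest to A8698 was a plant carboxylesterase (A13533) at a distance of 0.086, which was also the nearest to A353 (0.164). A MYB transcription factor described as MYB177 (A52301) lay 0.176 from A3704 and 0.192 from A353, and MYB173 (A65431) lay 0.204 and 0.213 from the same members. An early light-induced protein (A288), of a thylakoid family that protects against excess light, lay 0.193 from A8698 and 0.442 from A3704. The others among the nearest 4 of a member were a UDP-glucosyltransferase (A61089, 0.209 from A353), the gibberellin receptor GID1 (A23928, 0.197 from A8698) and a serine/threonine protein kinase (A14857, 0.251 from A8698). Likeness over 4 pools is a description of these arrays and shows no shared function.

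By the way they were chosen, these neighbours swung between replicates as LHY did. MYB177 read 2310 and then 633 in the unstressed replicates, and 1747 and then 634 in the stressed ones. The early light-induced protein read 30174 and then 11377 in the unstressed replicates, and 29638 and then 11411 in the stressed ones. In the pools numbered 1 the 7 neighbours were between 2.29-fold (A23928) and 3.26-fold (A65431) higher. Their choice by likeness to LHY over the same 4 pools fixed these folds, so they are given as a description. Among called transcripts, the largest difference towards the pools numbered 1 was that of a polygalacturonase precursor (A31734), an enzyme class that cuts pectin, at 5.38-fold (limma adjusted p = 3.78e-07). The largest towards the pools numbered 2 was that of a beta-glucosidase (A92459), at 3.05-fold (limma adjusted p = 5.18e-06).

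**Figure D4:**
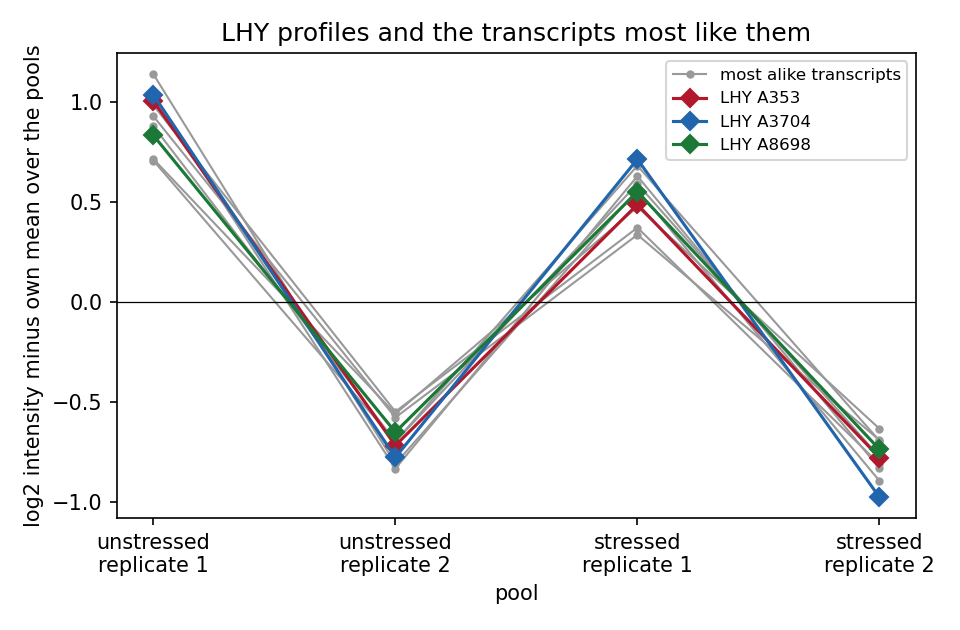
Lines give the log2 intensity of each transcript minus its own mean over the 4 pools, coloured with diamonds for LHY and grey for the 7 other transcripts most like a member; lines only help the eye, since pools have no order. LHY lies 0.49 to 1.04 above its mean in the pools numbered 1 and 0.65 to 0.98 below it in those numbered 2.

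Other parts of the clock could not be followed by name. Search terms for TOC1, pseudo-response regulators, GIGANTEA, EARLY FLOWERING, ZEITLUPE, REVEILLE and related clock proteins matched 0 descriptions beyond LHY. Descriptions on this array are short and cut off, so this count says nothing of which genes were measured. Light signalling, which feeds the clock, was covered by 18 transcripts. Of these, 3 were lower in replicate 2 (16.7%, against 2.50% of all transcripts), none was higher (against 1.73%) and 15 did not pass the test, with a median log2 difference of −0.11 against 0.01 over all transcripts.

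The 3 light signalling transcripts were described as ubiquitin ligases or as an F-box protein, classes that act in protein breakdown. COP1, a ubiquitin ligase that in Arabidopsis marks light-promoting factors for breakdown in darkness, was represented by 5 transcripts, of which 2 were called. One of them, A14078, read 4097 and then 1818 in the unstressed replicates, and 3036 and then 1617 in the stressed ones, so that it was 2.06-fold higher in the pools numbered 1 (1.67 to 2.54, limma adjusted p = 4.63e-04). The other, A18826, was 1.64-fold higher (1.33 to 2.01, limma adjusted p = 0.0088). A phytochrome A-associated F-box protein (A23822), of a kind that in Arabidopsis dampens phytochrome A signalling, was 1.80-fold higher (1.44 to 2.25, limma adjusted p = 0.0042). With 50 added to each intensity before log2, only A14078 of these 3 passed the threshold. None of the 6 transcripts described as phytochrome A or phytochrome B, the red and far-red photoreceptors, was called, with log2 differences from −0.22 to 0.12. The phytochrome B with the smallest p (A15473) had a log2 difference of −0.22 (limma adjusted p = 0.42).

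A list of outputs was matched by the names of families with members that the clock drives in other plants. Whether it drives each matched transcript in koa was not tested. The list had 16 members, of which 3 were lower in replicate 2 (18.8%, against 2.50% of all transcripts). In the other direction 1 was higher (6.25%, against 1.73%), and 12 did not pass. A beta-amylase (A254381), which breaks down starch, read 918 and then 427 in the unstressed replicates, and 701 and then 404 in the stressed ones, 1.93-fold higher in the pools numbered 1 (limma adjusted p = 0.0011). A CONSTANS-like zinc finger protein (A5649), of a family that includes regulators of flowering time, was 1.55-fold higher (limma adjusted p = 0.016) and was the only called transcript of 5 in that family. Catalases, which break down hydrogen peroxide, differed in direction, with A329 1.53-fold higher in the pools numbered 1 (limma adjusted p = 0.035) and A124 1.54-fold higher in those numbered 2 (limma adjusted p = 0.023). With 50 added to each intensity, only A254381 of these 4 passed. The 3 glycine-rich RNA-binding transcripts of the list were not called, with log2 differences from 0.19 to 0.22. A chlorophyll a/b-binding protein in the list (A61) was not called either (log2 difference 0.03, limma adjusted p = 0.93). It read close to the highest array intensity. The list's median log2 difference was −0.01.

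The MYB list, the wider family to which LHY belongs, held 81 transcripts, 2 of which were beta-amylases caught by the search term. In replicate 2, 12 were lower (14.8%, against 2.50% of all transcripts), 1 was higher (1.23%, against 1.73%) and 68 did not pass. Without the beta-amylases 11 of 79 were lower. MYB131 (A6518) fell most steeply, from 7079 to 1232 in the unstressed and from 4986 to 1180 in the stressed pools, 4.93-fold higher in the pools numbered 1 (3.95 to 6.14, limma adjusted p = 3.78e-07). MYB173 (A65431), MYB177 (A52301) and MYB118 (A3061) were 3.26-fold, 3.17-fold and 2.09-fold higher there (limma adjusted p = 5.18e-06, 5.18e-06 and 5.52e-04). The only MYB transcript called higher in replicate 2 was a MYB domain class factor (A57214, log2 difference 0.63, limma adjusted p = 0.018). It was named here after its value was seen. With 50 added to each intensity, 6 of the list were called lower and 0 called higher. Its median log2 difference was −0.17.

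**Figure D5:**
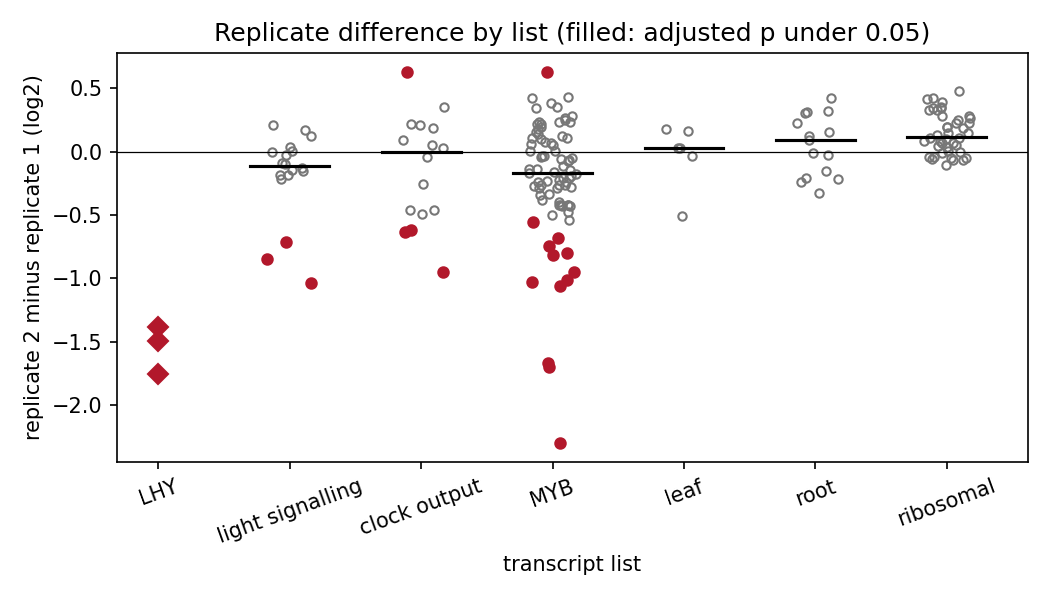
Points give the log2 difference between replicates 2 and 1 for the LHY transcripts (diamonds) and for the members of each list, filled where limma's adjusted p was under 0.05, with a black bar at each list's median; points are spread sideways at random. The LHY transcripts lie at −1.75 to −1.39, below every member of the light signalling list and every member of the output list, while 3 MYB transcripts lie within or below that range.

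In the comparison of bent with unbent seedlings these lists had no transcript called by limma, with 18, 16 and 81 members not passing, against 0.950% of all transcripts called. In that order, 1 of 18, 0 of 16 and 7 of 81 had an unadjusted p under 0.05 in limma's test, against 5.50% of all transcripts. The largest stressed-to-unstressed ratio among the MYB transcripts with the smallest p was 2.97 for a MYB domain class factor (A132993, 1.80 to 4.92, limma adjusted p = 0.17). MYB112 (A6869) stood at 1.78 (limma adjusted p = 0.14), MYB93 (A46622) at 1.64 (0.20) and MYB187 (A251040) at 1.61 (0.17). These 4 had replicate differences between 0.08 and 0.43 on the log2 scale, none of them called. The light signalling transcripts with the smallest p were a phytochrome A (A466541) at a log2 difference of 0.44 (limma adjusted p = 0.87) and, at an adjusted p of 0.986 each, a further phytochrome A (A11378, −0.23), a COP1 (A99169, −0.18) and the phytochrome B A15473 (−0.21).

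Transcripts matched by the search terms for leaf tissue ranged from very bright to very dim. A chlorophyll a/b-binding protein (A61) read 61684 to 63243, close to the highest array intensity of 64925. The photosystem II protein PsbR (A73) read 29096 to 30572. In contrast, a 4Fe-4S ferredoxin (A115582) read 298 to 377. A ribulose-phosphate 3-epimerase (A526993) read 48.1 to 52.7, close to the lowest array intensity of 44.2. Of the 6 leaf, 15 root and 42 ribosomal transcripts none was called between replicates, with median log2 differences of 0.03, 0.10 and 0.12. Ferredoxin-1 (A812), a leaf marker, was lower in replicate 2 by 0.50 on the log2 scale, just short of the threshold (limma adjusted p = 0.051). The summed intensity of the leaf list was 129699 to 136305 in the pools numbered 1 and 122391 to 126974 in those numbered 2. That of the root list was 32077 to 33870 and 35183 to 36856, and that of the ribosomal list 193955 to 234226 and 243739 to 244138. Of the 6 leaf transcripts, 2 (Ferredoxin-1 and PsbR) had a negative log2 difference between replicates and 4 a positive one. The leaf sum was lower in the pools numbered 2 only with Ferredoxin-1 included. Without Ferredoxin-1, a step chosen after its value was seen, the other 5 summed to 98444 to 100214 in the pools numbered 1. In those numbered 2 they summed to 100065 to 101877. Most of this sum was A61, which lay near the top of the scale, so the sum is a weak measure of leaf content. The root and ribosomal sums were higher in the pools numbered 2, opposite to LHY, and their part in the LHY difference was not tested. The leaf terms also caught a ferredoxin:sulfite reductase (A8136). The root terms also caught a chloroplast pentose phosphate transporter (A26202) and a transcript described as auxin-induced in root cultures (A6182). A6182 read 7783 and then 10918.5 in the unstressed replicates, and 9983 and then 11166 in the stressed ones. This rise made up most of the root sum's difference between replicates in either group. Of the 15 root transcripts, 8 had a positive and 7 a negative log2 difference between replicates. The higher root sum is therefore not a result about the list as a whole. The ribosomal term also caught a ribosomal protein S6 kinase (A132084). These sums are therefore not measures of leaf tissue, root tissue or ribosomes alone.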

How the data were processed

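Double-stranded cDNA carried the dye Cy3 and was hybridised to NimbleGen arrays with 1 colour, per the labels' protocols. The deposited intensity values were made with RMA by the authors, per the submitters' processing notes (version and settings: not stated in the labels used here). RMA assumes that most transcripts do not change and can compress differences of very dim or very bright ones. The PROBE_PAIRS column, another deposited value, gives the number of probes. Intensities were taken to log2 with nothing added and no filter, and fitted with limma 3.58.1 in R 4.3.3 (lmFit, eBayes) over all 4000 transcripts, with Benjamini-Hochberg adjustment and a threshold of 0.05. Bent against unbent used the group alone (2 residual degrees of freedom, prior 2.93). Replicate 2 against replicate 1 used group and number. The fits were tested on simulated data. The number of arrays limits the precision, and p-values measure the spread between these pools. The members, lists and tests were chosen with earlier results of these data known.

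Lists were search terms on the descriptions. Of lists with up to 8 members all could be named, of others the 4 with the smallest p in each comparison. For likeness, the 4 transcripts of distinct description nearest to each member were named, and for each direction of the replicate comparison the largest called. Root and ribosomal transcripts are given as list values, except those named as caught by the search terms. Alternatives left out each pool, left out the dimmest 25% of transcripts, added 50 to the intensity, normalised or centred again, changed the eBayes prior, added the replicate number or used the series' value table, which equals the array files (largest difference 0).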

Additional observations from a re-analysis of the deposited data

How the results depend on the processing

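In the comparison by replicate number, A353, A3704 and A8698 were called under each alternative with a test, with adjusted p of at most 0.0106, 0.0063 and 0.0073. Leaving out 1 pool leaves no residual degree of freedom there, and the values were −1.73 to −1.27, −1.82 to −1.69 and −1.49 to −1.29. The number of transcripts called was 169, but 29 with 50 added to the intensity and 343 with an intensity trend in the prior; the cause was not tested. With 50 added, the transcripts called lower in replicate 2 numbered 1 in the light signalling list, 1 in the output list and 6 in the MYB list, and 0 were higher in the last 2 of these lists. A23822, A18826, A124, A5649 and A329 then missed the threshold (adjusted p 0.0776 to 0.16). With the trend, 5 output transcripts were called lower. Without the dimmest transcripts 0 MYB transcripts were called higher. A329 missed the threshold after a further quantile normalization (0.0597), and A812 passed it in 4 alternatives (0.000347 to 0.0498).

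Between bent and unbent pools, 38 transcripts were called, 8 to 27 when 1 pool was left out (25 and 27 without the first or second unstressed pool, 10 and 8 without the first or second stressed pool). Leaving out 1 pool moved the log2 difference of A353 between −1.15 and 0.57. That of A3704 moved between −1.17 and 0.65, and that of A8698 between −0.93 and 0.56. The replicate numbers are then unbalanced between the groups, so the difference between replicates enters these values. With the replicate number as a block 139 transcripts were called, but none of the LHY members (adjusted p 0.50, 0.52 and 0.70; log2 intervals −0.61 to 0.03, −0.56 to 0.04 and −0.48 to 0.11). Under the block 6 transcripts of the MYB list were called higher, among them the 4 named for this comparison (adjusted p 1.1e-05 to 0.0066). Across transcripts, the replicate differences of the 2 groups correlated at r = 0.505, but the labels do not say that a number marks a shared batch, and 2 pairs are too few to settle it.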

Other observations

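More transcripts differed between the replicate numbers than between bent and unbent seedlings, with 169 called against 38, and 0 transcripts were called in both comparisons. The fits differ in their prior and residual degrees of freedom, and with the replicate number as a block the second count was 139. With 50 added to each intensity the order reversed, with 29 called by replicate number and 33 by bending. In the other alternatives that tested both comparisons, the count by replicate number stayed larger. Of the 169, 100 were higher in the pools numbered 1 and 69 in those numbered 2.

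The 11 transcripts at least 2-fold higher in both pools numbered 1 than in either pool numbered 2 were, besides the 3 LHY members, 2 polygalacturonase precursors (A31734 and A30233, log2 differences −2.43 and −2.41), MYB131 (A6518), MYB173 (A65431), MYB177 (A52301), the carboxylesterase A13533, the early light-induced protein A288 and the gibberellin receptor A23928. A30233 was named after its value was seen. Of these 11, 3 were described as LHY and 3 as MYB factors. The labels used here do not say what the replicate number stands for, and no cause was tested.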
